A study of Pimephales promelas with 15 samples.

Results

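The livers of 4 male fathead minnows kept for 48 h in treated wastewater were compared with those of 3 males kept in control water. These are 7 of the 15 arrays of the study, chosen by the water named in the sample labels. Fathead minnow (Pimephales promelas) is a small freshwater fish widely used in aquatic toxicology. The wastewater was effluent of a treatment plant that is used for irrigation in landscaping, and the control was tap water passed through carbon and freed of chlorine. The other males of the study were kept in stormwater from a lake (4 livers) or in streamwater taken below a treatment plant (4 livers), and they enter below only where a probe's level in them is given. All fish were adult males from a shared tank, were not fed during the exposure and were not genetically altered. Each array held the liver RNA of 1 fish, labelled with a single dye. Water was supplied to several aquaria with several males each, and which aquarium each of these fish came from is not in the labels. Each p-value therefore takes single fish as replicates, some of which may have shared an aquarium.

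The liver makes most plasma proteins and is the main site where fish break down and excrete foreign compounds. Sewage effluents can carry estrogenic compounds, and male fish exposed to these are known to make vitellogenin, the egg yolk precursor that females normally produce in the liver. Male fathead minnows are used as a test animal for that response. The files name the array's probes by identifiers, contig numbers or sequence numbers, and 0 of the 15208 names matched the gene table at hand. No probe below is therefore tied to vitellogenin or to any other gene, the tissue label could not be checked against liver markers, and no gene group could be followed.

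Of the 15208 probes, 10544 passed the call of well above background on 3 or more of the 7 arrays and were tested. The other 4664 were not. Each level below is a log2 signal set relative to its own array's 75th percentile, so a level of 0 is that percentile. That percentile lay between 1393 and 2447 intensity units on the wastewater arrays and between 1708 and 2150 on the control arrays. Over the tested probes, pairs of wastewater arrays correlated at 0.872 to 0.945, pairs of control arrays at 0.928 to 0.934, and pairs across the groups at 0.901 to 0.951. An array therefore resembled arrays of the other water about as much as arrays of its own. The median SD of a probe was 0.50 (log2) between wastewater livers and 0.39 between control livers.

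The clearest difference lay in a handful of probes. In limma's fit of the 7 arrays, 6 probes passed at a Benjamini-Hochberg adjusted p of 0.05, 3 of them higher and 3 lower after wastewater, which is 0.0569% of those tested. The next adjusted p was 0.144. Of the 6, the 3 lower probes and UF_Ppr_AF_119087 met the filter only through the group where they were high. With no filter on dim probes 4 passed, all of them among the 6. Fitting only these 7 arrays was chosen with the knowledge that an earlier analysis had found passing probes that way and none with all arrays. In limma's fit over all 15 arrays, where the spread within stormwater and streamwater enters the error, 0 probes passed, the lowest adjusted p was 0.694, and 278 probes had an unadjusted p under 0.05. Stormwater 2 and streamwater 4 were treated as atypical arrays, though their distance from the rest is not given here. Without them limma's fit again passed 0 probes, with 0.168 as the lowest adjusted p and 447 at an unadjusted p under 0.05.

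UF_Ppr_AF_119087 had the lowest p. Its level was 6.67, 7.65, 5.97 and 7.33 in wastewater livers, against -5.79, -6.47 and -6.43 in control livers. In intensity units the probe read 248544, 355762, 110280 and 223804 on the wastewater arrays, against 38.8, 22.6 and 19.8 on the control arrays. All 4 wastewater readings were high, and the probe was detected in no control. It met the filter through the wastewater arrays alone, and with no filter on dim probes it also passed (limma adjusted p = 1.73e-05). The controls give only a bound, for which the bright group is set against a floor: on each dim array, the probe's level or that of the dimmest well detected probe, whichever is higher, averaged over the dim arrays. By this bound the probe was at least 2683-fold higher after wastewater. Each bound given here holds for the reported background and scaling only, and no interval was worked out for it. With a normexp background this probe differed by 10.02 (log2), which is less than its bound. Here and below, limma tests the levels as read, undetected ones included, and not the bound. Where a whole group is undetected, its SD comes from readings near background and need not reflect spread among fish. The levels as read differed by 13.13 (log2, SE 0.44, limma adjusted p = 1.94e-05 with 7 arrays and 0.694 with 15, range 1.26e-06 to 1.00 over all settings). The probe passed in 20 of the 24 settings in which it was tested, and in every one of them that fitted only wastewater and control arrays.

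The same probe separated single fish in the other waters. In stormwater livers it stood at -1.76, -4.60, -2.56 and 6.75, and in streamwater livers at -5.39, 5.10, -3.32 and -1.67. Stormwater 4 thus lay within the wastewater range and streamwater 2 just under it, while the remaining 6 of these 8 livers lay far lower. All 12 exposed livers read above every control, though in streamwater 1 and 3, as in the controls, the probe was not well above background. Wastewater minus stormwater was 7.44 (SE 2.26, limma adjusted p = 0.671 over 15 arrays), and wastewater minus streamwater was 8.22 (SE 2.26, limma adjusted p = 0.873), so neither difference passed.

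UF_Ppr_AF_118982 was the second probe of large size. Its level was 2.45, 3.51, 3.28 and 3.85 in wastewater livers, against -1.15, -0.68 and -1.80 in control livers, and it was well above background on all 7 arrays. The groups lay far apart, 3.27 ± 0.60 (SD, n = 4) against -1.21 ± 0.56 (SD, n = 3), a difference of 4.49 (log2, SE 0.41), or 22.4-fold (limma adjusted p = 0.0175 with 7 arrays and 1.00 with 15, range 0.00305 to 1.00 over all settings). In stormwater livers it stood at -1.07, -5.54, -3.88 and 3.21, and in streamwater livers at 2.19, -2.84, -0.39 and -5.36. Of these 8 livers 3 were above every control and 4 below every control, and stormwater 4 was again the 1 within the wastewater range.

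UF_Ppr_AF_118252 differed less but more evenly. Its level was 0.43, 0.69, 0.78 and 0.90 in wastewater livers, against -2.10, -1.97 and -2.34 in control livers. The 4 wastewater livers lay within a narrow band above all controls, at 0.70 ± 0.20 (SD, n = 4) against -2.14 ± 0.19 (SD, n = 3), a difference of 2.84 (log2, SE 0.24), or 7.16-fold (limma adjusted p = 0.0158 with 7 arrays and 0.694 with 15, range 0.00331 to 1.00). In the other waters the probe was also high, with stormwater livers at 1.14, -0.82, 1.28 and 0.81 and streamwater livers at -0.26, -1.34, 1.09 and -0.45. All 12 exposed livers were above every control, and these comparisons share the 3 control arrays. Wastewater minus stormwater was 0.10 (SE 0.50, limma adjusted p = 0.953), and wastewater minus streamwater was 0.94 (SE 0.50, limma adjusted p = 0.873).

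The 3 lower probes were dim after wastewater. Each was detected in all 3 controls and in no wastewater liver, so that their ratios are bounds. They met the filter of 3 detected arrays through the controls alone, the group where they are high. With no filter on dim probes UF_Ppr_AF_110291 still passed (limma adjusted p = 0.0402). Without that filter UF_Ppr_AF_113172 and UF_Ppr_AF_118414 did not pass (limma adjusted p = 0.0563 for each). UF_Ppr_AF_113172 was at -4.28, -6.14, -6.29 and -5.80 in wastewater livers, against -0.92, -1.73 and -0.77 in control livers, which puts it at least 7.15-fold lower after wastewater by the bound. Its levels as read differed by -4.48 (log2, SE 0.52, limma adjusted p = 0.0489 with 7 arrays and 1.00 with 15, range 0.0133 to 1.00). No wastewater liver came near the controls. In the other waters its level was within or above the control range in 7 of 8 livers, from -1.45 to 1.28, and at -6.11 in streamwater 3. Wastewater minus stormwater was -5.32 (SE 1.16, limma adjusted p = 0.578), which did not pass.

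UF_Ppr_AF_110291 was at -5.97, -6.07, -6.18 and -5.73 in wastewater livers, against -3.31, -2.75 and -3.60 in control livers. The bound puts it at least 1.69-fold lower. Its levels as read differed by -2.77 (log2, SE 0.29, limma adjusted p = 0.0297 with 7 arrays and 1.00 with 15, range 0.0222 to 1.00). UF_Ppr_AF_118414 was at -5.80, -5.90, -5.22 and -5.62 in wastewater livers, against -2.91, -3.35 and -3.30 in control livers, at least 1.73-fold lower by the bound. Its levels as read differed by -2.45 (log2, SE 0.27, limma adjusted p = 0.0431 with 7 arrays and 1.00 with 15, range 0.0377 to 1.00). For both probes the wastewater readings, between 24.4 and 47.3 intensity units, lay below the dimmest well detected probe of their arrays. Of the 8 stormwater and streamwater livers, 6 were below every control at each of these probes.

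The calls differed in how often they held. UF_Ppr_AF_118252 passed in 12 and UF_Ppr_AF_118982 in 11 of 25 settings, the reported fit included. The lower probes passed less often, UF_Ppr_AF_110291 in 6, UF_Ppr_AF_113172 in 5 and UF_Ppr_AF_118414 in 4 of 24 settings. None of the 3 lower probes passed with a normexp background or with trend and robust variance, where the 3 higher ones did. With normexp, UF_Ppr_AF_110291 differed by -0.34 (log2, limma adjusted p = 0.828) and UF_Ppr_AF_118414 by -0.12 (limma adjusted p = 0.942), and UF_Ppr_AF_113172 by -1.97 (limma adjusted p = 0.719). Each of these differences is smaller than the bound given above for its probe. With the authors' deposited values UF_Ppr_AF_110291 (limma adjusted p = 0.0748) and UF_Ppr_AF_118414 (limma adjusted p = 0.428) did not pass either.

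**Figure D1:**
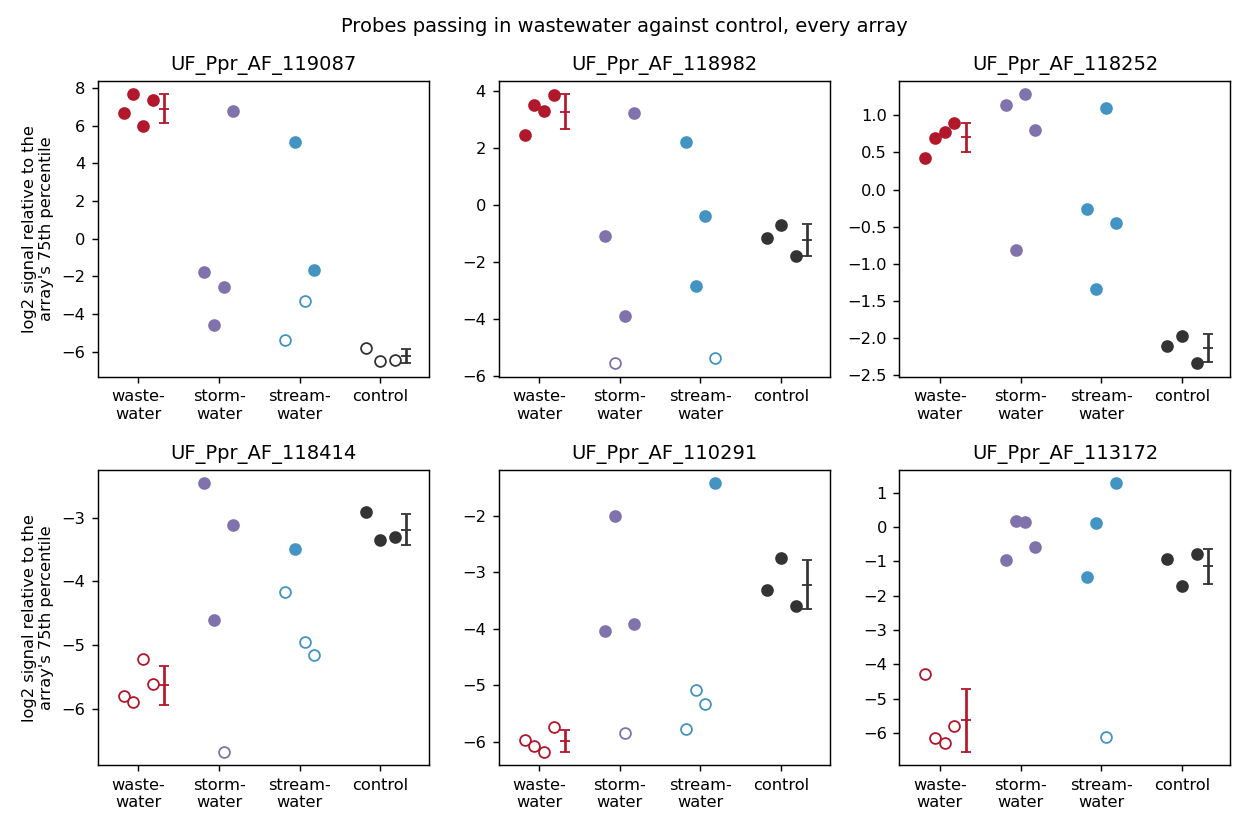
Levels of the 6 passing probes on all 15 arrays, on a log2 scale relative to each array's 75th percentile, with 1 point per liver, open where it was not detected as well above background, and bars for mean and SD of the wastewater (n = 4) and control (n = 3) livers. In each panel the wastewater and control livers do not overlap. Stormwater and streamwater livers spread more widely than wastewater livers, for UF_Ppr_AF_119087 between -5.39 in streamwater 1 and 6.75 in stormwater 4. The exception is stormwater at UF_Ppr_AF_113172 (SD 0.56, n = 4, against 0.92 in wastewater livers, n = 4). The 6 probes were picked on wastewater and control arrays alone, which favours a small spread there, so a wider spread elsewhere is part of that choice.

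Stormwater 4 was alike to the wastewater livers at the 3 higher probes only. It stood at 6.75, 3.21 and 0.81 for UF_Ppr_AF_119087, UF_Ppr_AF_118982 and UF_Ppr_AF_118252. At the lower probes it stood at -0.59 for UF_Ppr_AF_113172, -3.92 for UF_Ppr_AF_110291 and -3.12 for UF_Ppr_AF_118414, above the whole wastewater range at each.

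How far the calls rest on single arrays was examined by leaving out each array in turn. Without any 1 of wastewater 2, 3 and 4 or control 1, 2 and 3, only UF_Ppr_AF_119087 of the 10544 probes still passed limma's test, with an adjusted p between 3.55e-05 and 0.000790. Without wastewater 1, 6 probes passed, of which 4 were among those above. Fewer arrays also leave fewer degrees of freedom for the error.

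The arrays came from 2 slides. Slide 1 held wastewater 1 and 2 and control 1, and slide 2 held wastewater 3 and 4 and control 2 and 3, so the comparison can be made on each slide with arrays that the other does not use. Wastewater minus control for UF_Ppr_AF_119087 was 12.95 on slide 1 and 13.10 on slide 2, for UF_Ppr_AF_118982 4.13 and 4.81, and for UF_Ppr_AF_118252 2.67 and 3.00. For UF_Ppr_AF_113172 these differences were -4.28 and -4.79, for UF_Ppr_AF_110291 -2.71 and -2.78, and for UF_Ppr_AF_118414 -2.94 and -2.09. The passing probes were chosen on all 7 arrays, so a like size on both slides is part of that choice. On slide 2, array row and water cannot be told apart, as wastewater 3 and 4 lay in row 1 and control 2 and 3 in row 2.

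Over all probes the differences on the 2 slides were only weakly correlated. Across the 10543 probes measured on both, which are not independent of each other, the slide 1 and slide 2 differences correlated at r = 0.094 (Spearman rho 0.082), and 55.96% of them had the same sign. A difference of 4-fold or more was found for 140 probes higher and 159 lower on slide 1, and for 59 higher and 185 lower on slide 2. Of these, 7 were higher and 25 lower on both slides, while 15 were 4-fold or more in opposite directions. How many probes would coincide in these ways with no shared difference was not worked out, and slide 1 holds 1 control only. With slide as a block in limma's fit of the 7 arrays, 2 probes passed, UF_Ppr_AF_119087 (adjusted p = 0.000245) and UF_Ppr_AF_118252 (adjusted p = 0.0384). In limma fits within a slide, whose error is pooled over all 15 arrays, 0 probes passed on slide 1 and 0 on slide 2, with 175 and 379 at an unadjusted p under 0.05.

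**Figure D2:**
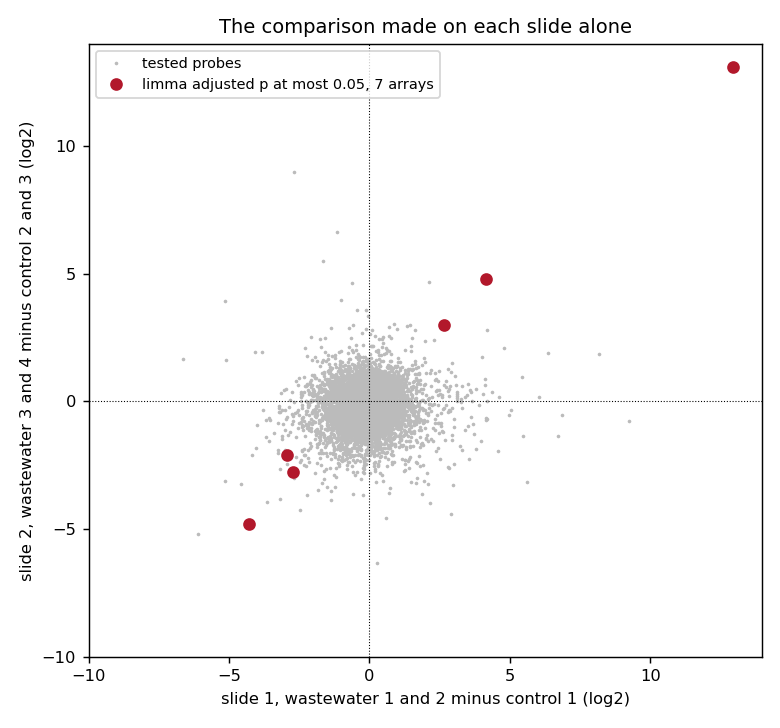
Wastewater minus control (log2) of each tested probe on slide 1 (horizontal, wastewater 1 and 2 against control 1) and on slide 2 (vertical, wastewater 3 and 4 against control 2 and 3), with 1 grey point per probe and the 6 passing probes in red. The grey points form a round cloud (r = 0.094), and the passing probes lie near the diagonal, UF_Ppr_AF_119087 at 12.95 and 13.10.

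Beyond the passing probes, few differences stood out in the reported fit. An unadjusted p under 0.05 was reached by 495 probes, 4.69% of those tested, where 527 would do so at that threshold with no difference at all. Of these, 154 were higher and 341 lower after wastewater. Levels of wastewater and control livers did not overlap for 604 probes (5.73%), with wastewater above control for 244 and below it for 360. With no difference, 1 of the 35 ways to label 4 of the 7 arrays as wastewater puts these wholly above. Another 1 puts them wholly below, a share of 0.0286 each. The 5.73% for both directions together is therefore about what no difference would give. With quantile normalization 276 lay above and 268 below, and with the authors' deposited values 332 above and 245 below, so the larger side depended on the scaling. Among 7729 probes that every one of the 7 arrays detected, the split was nearly even, 236 above and 209 below (5.76%).

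Lower probes outnumbered higher ones at the dim end of the range, and the split changed with the scaling. The median log2 fold change of all tested probes was -0.09. In 5 bins of equal size by mean level, from dim to bright, the median was -0.36, -0.18, -0.07, 0.00 and 0.09. In the dimmest bin, where 3.56% of probes were well above background on every array, wastewater lay above control for 5 probes and below it for 115. In the brightest bin wastewater lay above control for 113 and below it for 42. The filter for testing admitted dim probes that every control array but no wastewater array detected, and the lowest limits of detection were on control arrays. There were 138 such probes, and the groups did not overlap for 69 of them, against 604 (5.73%) of the 10544 tested. The 138 were picked by detection in every control and in no wastewater liver, so a larger share without overlap is part of that choice. How far the filter shaped the split in the dimmest bin was not tested. With no filter on dim probes, an unadjusted limma p under 0.05 was reached by 250 higher and 610 lower probes. With quantile normalization the medians of the bins lay between -0.01 and 0.03, and the unadjusted count was 206 higher and 232 lower. With the authors' deposited values the count was 221 higher and 219 lower, and with a normexp background it was 457 higher and 207 lower, which moved the overall median to 0.13.

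**Figure D3:**
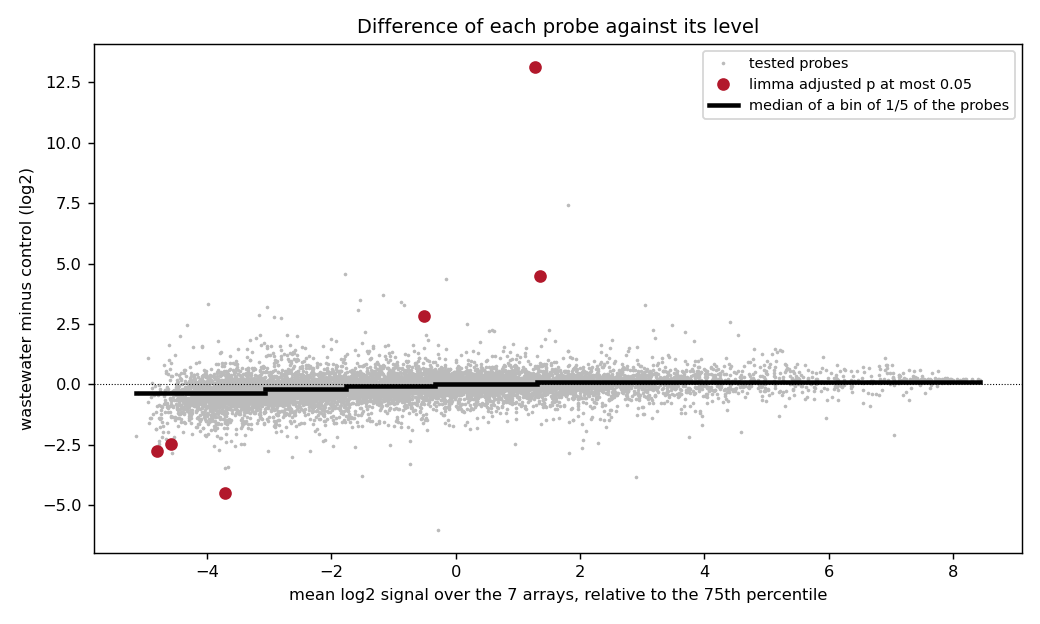
Wastewater minus control (log2) of the 10544 tested probes against the mean level over the 7 arrays (log2 relative to the 75th percentile), with the 6 passing probes in red and black lines at the median of each of 5 equal bins. The lines climb from -0.36 in the dimmest bin to 0.09 in the brightest, and 3 of the passing probes lie below 0 at the dim end.

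Fewer probes were detected after wastewater. The share of probes well above background was 64.7%, 60.6%, 61.5% and 58.5% on the wastewater arrays, against 65.8%, 75.2% and 73.4% on the control arrays. Every wastewater array lay below every control array, at 61.3% ± 2.55 (SD, n = 4) against 71.5% ± 4.97 (SD, n = 3), a difference of -10.2 percentage points (two-sided exact permutation p = 0.0286, the smallest p that the 35 relabellings allow). On slide 1 the difference was -3.20 points and on slide 2 it was -14.3.

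The arrays did not detect probes down to the same brightness. The dimmest well detected probe read 151, 110, 99.2 and 105 intensity units on the wastewater arrays, against 129, 72.5 and 69.6 on the control arrays. Control 2 and 3, the arrays with most detected probes, thus had the lowest limits. With 1 limit for all arrays, set relative to the 75th percentile after the values were seen, the shares were 62.0% ± 2.03 (SD, n = 4) after wastewater and 66.2% ± 0.882 (SD, n = 3) in controls, a difference of -4.15 points (two-sided exact permutation p = 0.0571). With 1 limit in intensity units the difference was -5.18 points (two-sided exact permutation p = 0.171). On slide 2 both wastewater arrays lay in row 1 and both controls in row 2, so that row and water cannot be told apart there.

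**Figure D4:**
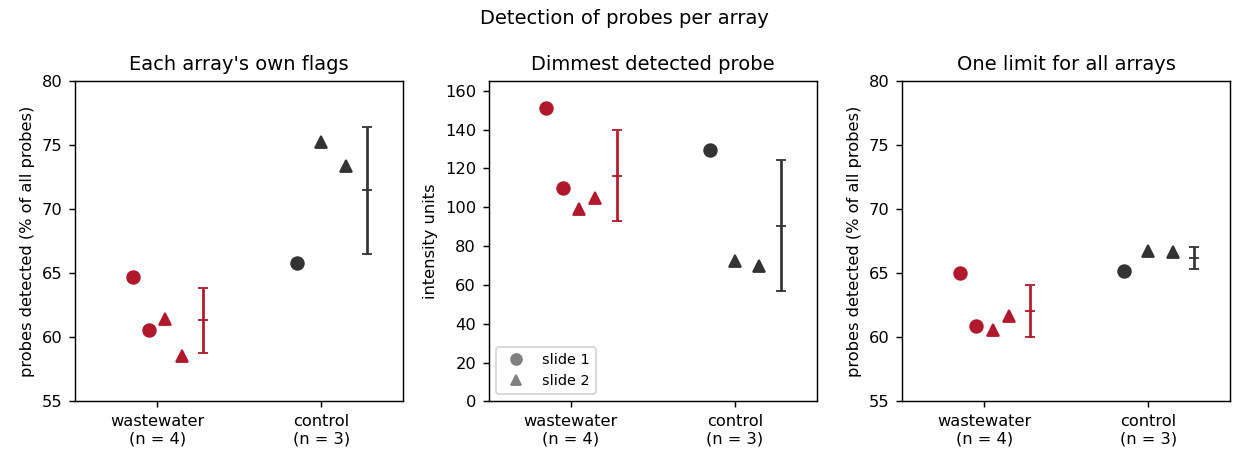
Detection on each of the 4 wastewater and 3 control arrays, circles for slide 1 and triangles for slide 2, with mean and SD: left, the percentage of the 15208 probes well above background by each array's own call; middle, the intensity of the dimmest well detected probe; right, the percentage above 1 limit common to the 7 arrays. The group means differ by -10.2 points on the left and by -4.15 on the right.

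All 3 control arrays but no wastewater array detected 138 probes, and for 1 probe, UF_Ppr_AF_119087, it was the reverse. With the common relative limit these counts were 37 and 4, and with the common intensity limit 33 and 1. The 138 probes were dim in controls as well, at a median level of -3.68. They were picked by detection in controls and not after wastewater, so that lower levels after wastewater follow from the choice. A bound could be given for 110, from 1.00-fold to 7.15-fold with a median of 1.36-fold, and it was over 2-fold for 13. After UF_Ppr_AF_113172 the largest bound belonged to UF_Ppr_AF_103328. It stood at -6.08, -6.08, -4.02 and -3.71 in wastewater livers, against -2.82, -1.52 and -2.41 in control livers, at least 3.23-fold lower by the bound. Its levels as read differed by -2.72 (log2, SE 0.69, limma adjusted p = 0.777). With a normexp background the difference was -0.62 (log2), smaller than the bound.

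Among probes detected on all 7 arrays with groups that did not overlap, the lowest p of the lower ones belonged to UF_Ppr_AF_118800 and UF_Ppr_AF_113492, and neither passed. UF_Ppr_AF_118800 stood at -3.65, -3.21, -2.99 and -3.09 in wastewater livers, against -2.25, -1.55 and -1.39 in control livers, a difference of -1.51 (log2, SE 0.31, limma adjusted p = 0.599). UF_Ppr_AF_113492 stood at -0.996, -1.69, -1.47 and -2.08 in wastewater livers, against 0.19, 0.27 and -0.42 in control livers, a difference of -1.57 (log2, SE 0.34, limma adjusted p = 0.62). Both differences amount to about the same size, 2.84-fold and 2.98-fold.

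Of the brightest signals of the control liver none passed the test. The 10 probes brightest in controls averaged 8.02 to 8.34 there, and 9 of them were higher after wastewater by at most 0.24 (log2). The exception was UF_Ppr_AF_109972, which stood at 7.73, 7.59, 7.69 and 1.60 in wastewater livers, against 8.23, 7.96 and 8.57 in control livers. Every wastewater liver lay below every control there. Most of its difference of -2.10 (log2, SE 1.45, limma adjusted p = 0.999) came from wastewater 4, without which it was -0.59. Of the 8 stormwater and streamwater livers, 7 were below every control at this probe. Stormwater 1 and 3 stood at -0.03 and 0.97 and streamwater 1 and 3 at 1.98 and 2.07, the others between 4.05 and 8.00. Of the 10 probes, 5 were saturated on at least 1 array, UF_Ppr_AF_109972 on 2, and a saturated spot cannot show a further increase, so small differences here do not show like levels of RNA.

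The largest differences in mean were mostly differences between single fish. Group means differed by 8-fold or more for 20 probes, 13 higher and 7 lower after wastewater, of which 3 passed and 5 had groups that did not overlap. For 14 of the 20 the SD within wastewater or within control was over 2 (log2). The second largest, UF_Ppr_AF_101592, stood at -1.50, 7.44, 6.94 and 7.05 in wastewater livers, against 3.05, -3.85 and -6.52 in control livers, a difference of 7.43 (log2, SE 2.79, limma adjusted p = 0.999). The largest negative difference, that of UF_Ppr_AF_115541, came from levels of -4.56, -4.22, 2.74 and -5.38 in wastewater livers, against 1.72, 5.84 and 1.89 in control livers, a difference of -6.01 (log2, SE 1.99, limma adjusted p = 0.999). For UF_Ppr_AF_101592, wastewater 1 lay within the control range and control 1 within the wastewater range. For UF_Ppr_AF_115541, wastewater 3 lay within the control range. These probes were chosen after their values were seen. Over all tested probes, levels ranged over more than 16-fold between the wastewater livers for 242 probes and between the control livers for 115, with 1 array fewer in the controls.

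**Figure D5:**
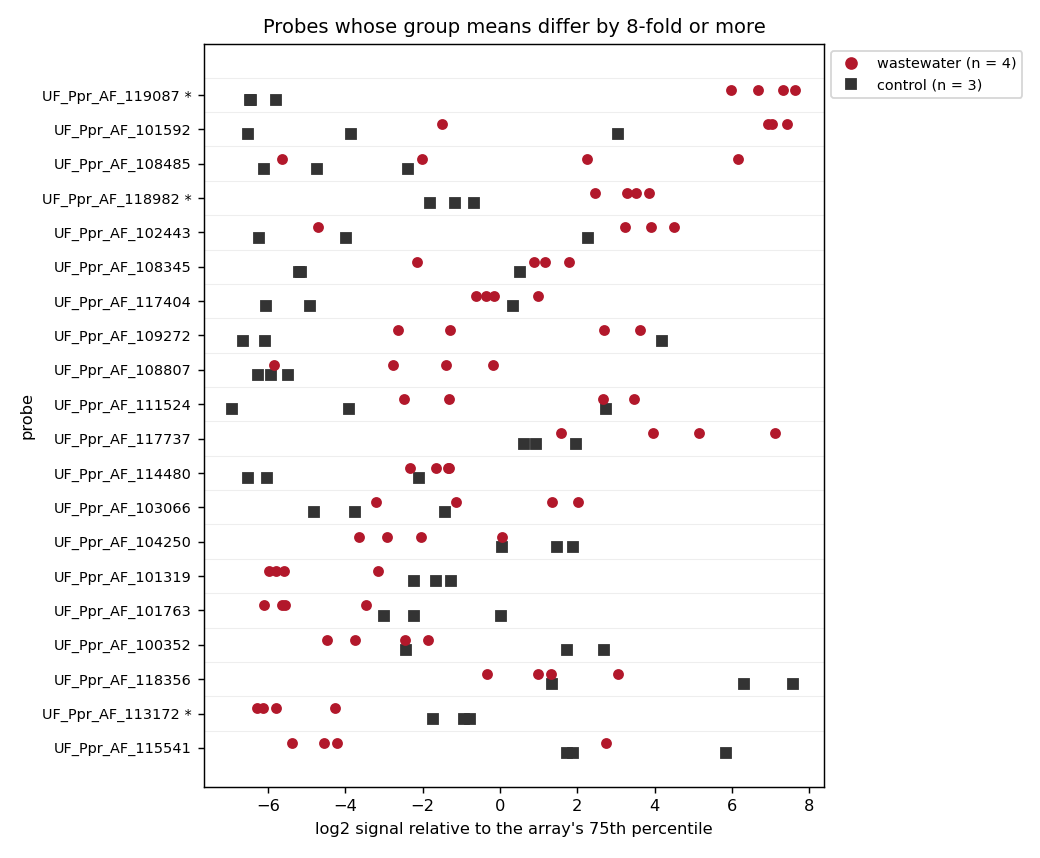
Level of each liver (log2 relative to the array's 75th percentile) for the 20 probes whose group means differ by 8-fold or more, wastewater (red circles, n = 4) above control (dark squares, n = 3) in each row, with an asterisk for a passing probe. The 3 passing probes hold their groups apart, while rows such as UF_Ppr_AF_101592 have wastewater 1 at -1.50 below control 1 at 3.05.

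The probes whose levels over all 15 arrays were most like those of UF_Ppr_AF_119087 were UF_Ppr_AF_102818 (Pearson r = 0.795), UF_Ppr_AF_111130 (r = 0.744) and UF_Ppr_AF_106867 (r = 0.695), the highest of all tested probes and given as a description. Their differences were far smaller than that of UF_Ppr_AF_119087, and none passed. In each, every wastewater liver lay above every control. They were picked by likeness to a probe that separates these groups, so this is part of that choice. UF_Ppr_AF_102818 was at 2.30 ± 0.20 (SD, n = 4) after wastewater and 1.74 ± 0.06 (SD, n = 3) in controls, a difference of 0.56 (log2, SE 0.24, limma adjusted p = 0.999). UF_Ppr_AF_111130 had a difference of 0.42 (log2, SE 0.25, limma adjusted p = 0.999) and UF_Ppr_AF_106867 one of 1.24 (SE 0.34, limma adjusted p = 0.822).

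With 7 arrays, the 95% confidence interval of a difference, not adjusted for the number of probes, reached 0.86 (log2) to either side for the median probe. For such a probe a difference must be larger than that to pass after adjustment over all probes. In limma's fit over all 15 arrays the interval of the median probe reached 1.00 to either side. The number of arrays alone therefore does not set this limit, and the spread between livers enters it too.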

How the data were processed

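Liver RNA of 7 fish was analysed, 4 after wastewater and 3 after control water, with 15 arrays in the study. Per the labels' protocols, 1000 ng of RNA was labelled. The deposited scanner files hold spot intensity values written by Agilent Feature Extraction, whose version is 10.1.1.1 per the file headers but 9.5 per the submitters' processing notes. The processed signal in these files is an intensity with the background already subtracted. The authors' deposited value table holds log2 values of the same arrays, whose columns correlated with log2 of the processed signal at 0.993 to 1.00. The sources used here do not state how the authors scaled the columns, and the table served as an alternative only.

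For each array, log2 of the processed signal was taken and the 75th percentile over the 15208 non-control probes subtracted. Spots marked as outliers were set to missing. Probes detected as well above background on 3 or more of the 7 arrays entered limma 3.58.1, run in R 4.3.3 (lmFit, 1 mean per water, eBayes, two-sided, Benjamini-Hochberg over all tested probes, threshold 0.05), with 5 residual degrees of freedom. The fit over 15 arrays has 11. Shares of detected probes were compared by exact permutation tests. The fitting was also run on simulated data with normal spread and no floor for dim probes, and no result above rests on that run. Alternatives were 24 further fits: other scalings and backgrounds, other filters, the slide, replicate number or array row as a block, other variance estimates, other sets of arrays and each array left out in turn. The array row and the common detection limits were added after the data were seen. The normexp background (offset 50) used the median spot signal, a mean spot signal being absent from these files.

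The members, tests, lists and the rule for named probes were chosen with earlier results of these data known. No probe name matched the reference gene table (assembly fPimPro1.hap1.1), so the gene lists and cell type markers gave no result. The rule then named every passing probe, the 2 of lowest p in each direction among probes detected on all 7 arrays without overlap, the 2 of largest bound in each direction, probes bright in controls that passed or did not overlap, and the 3 probes most like the one of lowest p. Other probes are said to be chosen after their values were seen. Figures were drawn with matplotlib 3.10.9.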

Additional observations from a re-analysis of the deposited data

Results flagged for a closer look

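Among 44 groups of 4 arrays checked for a single distant value, 3 were marked, and chance marks about 1 in 20. For UF_Ppr_AF_109972, wastewater 4 stood at 1.60 while the other wastewater livers stood between 7.59 and 7.73. For UF_Ppr_AF_111130, wastewater 4 stood at 0.20, above the other wastewater livers at -0.16 to -0.12. For UF_Ppr_AF_110291, streamwater 4 stood at -1.43, above the other streamwater livers at -5.77 to -5.08, and this array was left out of the fit over 13 arrays.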

How the results depend on the processing

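The count of 6 passing probes was 3 with a normexp background and 3 with trend and robust variance, the 3 higher probes in both, 2 with the filter that all 7 arrays detect the probe (where UF_Ppr_AF_119087 is not tested) and 2 with slide as a block. It was 1 with array row as a block and 1 with slide and array row as blocks, and 0 with all 15 arrays, 13 arrays, within slide 1 or within slide 2. Leaving out 1 array gave 1 to 6. The replicate block gave 1, UF_Ppr_AF_119087 (adjusted p = 0.00971). Same-numbered arrays had deviations correlating at 0.222, 0.019 and 0.154, so the numbers were not taken to pair fish, and wastewater 2 and 3 did not correlate best with their own number. In the remaining 6 settings 4 to 6 passed. The unadjusted count of 495 of 10544 probes was 860 of 15208 with no filter on dim probes. It was 278 with all 15 arrays, 753 with slide as a block, 175 within slide 1 (of 10543), 827 with slide and array row as blocks, and 350 to 657 without 1 array. For 10544 probes, 527 would be reached with no difference at all, and the 753 and 827 lie above that. So do 664 with a normexp background, 613 with array weights, 571 with the replicate block and 557 with array row as a block. Without control 3, wastewater 1 or wastewater 2 the counts of 548, 552 and 657 were above it too. The other fits of these 10544 probes lay at or below it. The share of higher probes among the 495 was 31.1%, against 47.0% with quantile normalization, 47.8% with probes detected on all 7 arrays, 50.2% with the authors' values and 68.8% with a normexp background. The median log2 fold change of -0.09 was 0.0092 with quantile normalization, 0.13 with a normexp background, 0.030 with the authors' values and -0.021 with probes detected on all 7 arrays, and -0.15 to -0.04 without 1 array. The detection difference of -10.2 points was -9.39 over tested probes (exact permutation p = 0.0571), -4.15 and -5.18 with common limits, -3.20 within slide 1 and -14.3 within slide 2, and -13.0 to -8.28 without 1 array, where no split can reach 0.05. No named probe changed direction in any setting run. Every setting used arrays on which these probes were picked, so a steady direction is part of that choice. Of 140 values of the 6 passing probes in other settings, 88 lost the call and 52 kept it. The causes were not tested. Signal over background limits the 3 lower passing probes, whose wastewater levels are bounds.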

Other observations

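Some probe names carry a set number and a contig number, and 1624 of 9741 sets have more than 1 probe. What the set number stands for is not given in the files. Of the 6 passing probes, 3 had another probe of the same set, looked up after the results were seen. The 2 that were tested did not pass. The partner of UF_Ppr_AF_118982, UF_Ppr_AF_107225, was at -0.96 ± 0.32 (SD, n = 4) in wastewater livers and -0.75 ± 0.37 (SD, n = 3) in control livers, a difference of -0.21 (log2, SE 0.30, limma adjusted p = 0.999), against 4.49 for the passing probe. The partner of UF_Ppr_AF_113172, UF_Ppr_AF_113775, had a difference of -0.24 (log2, SE 0.38, limma adjusted p = 0.999). The partner of UF_Ppr_AF_118414, UF_Ppr_AF_106007, was at -4.78 ± 0.71 (SD, n = 4) in wastewater livers and -4.06 ± 0.07 (SD, n = 3) in control livers, well above background on 0 of 4 and 2 of 3 arrays, and was not tested.

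Set against the other waters in limma's fit over 15 arrays, no probe passed for the wastewater livers. The lowest adjusted p was 0.576 against streamwater and 0.578 against stormwater, with 585 and 672 probes at an unadjusted p under 0.05.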
